A study of Mus musculus with 3 samples.

Results

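The mouse T cell receptor alpha-delta locus on chromosome 14 was described from ATAC-seq peaks, in which a transposase marks open DNA, in 3 sorted fractions of CD4+ T cells. Peaks of the 3 deposited lists that shared at least 1 bp were merged into 57457 regions. Of these, 188 were taken: all 181 regions of the interval chr14:52427967-54224198 (mm10), from Trav1 to the end of Trac, and 7 further regions behind Trac whose nearest protein-coding gene is Dad1. The regions were taken by position only, and the locus was chosen with earlier results of these data known. Of the 188 regions, 101 had Dad1 as the nearest protein-coding span, and the other 87 were nearest to Gm36448, Olfr1509 or Olfr1510.

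The divided fraction held CBir1 cells that had diluted a division dye, the undivided fraction held CBir1 cells that had kept it, and the polyclonal fraction held the recipients' own CD4+ T cells. CBir1 cells carry a transgenic receptor for a flagellin of gut bacteria. They were enriched as naive CD4+ cells from spleens of transgenic mice and moved into 4 wild-type C57BL/6J mice. All recipients drank 2% dextran sulfate sodium, which injures the colon lining, for 7 days, received 1 mg/kg FTY720, which holds lymphocytes in lymph nodes, on days 7, 10 and 13, and gave their colon-draining mesenteric nodes on day 14. Every fraction came from these recipients, with no untreated group. Duplicate pools of 2 mice each are described in the labels, whereas the values here come from 1 peak list for each fraction. With n = 1 library per fraction, every difference lacks a replicate check, and no test was run.

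The alpha-delta locus holds a long array of V segments, the delta D, J and constant genes, an array of J alpha segments and the alpha constant region Trac. In developing alpha-beta T cells a V segment is joined to a J alpha segment, and the DNA between them, with the delta genes, is cut out. Later joins can use V segments further out and J segments closer to Trac. An enhancer behind Trac drives the rearranged gene, and next to it lies Dad1, a subunit of the enzyme that adds sugar chains to proteins in the endoplasmic reticulum. Peaks report how many fragments were found at a place, so the number of DNA copies left in the cells and the openness of each copy cannot be told apart here.

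The values are summit pileups, that is the number of fragments stacked at a peak's highest point, recovered from the deposited fold and p-value. The read total of each library is unknown. The lowest local background was 1.21 fragments for divided cells, 0.808 for undivided cells and 0.865 for polyclonal cells, which makes the divided library the deepest, at 1.496 times the undivided and 1.40 times the polyclonal one. Ratios between libraries use pileups scaled by the median ratio over the regions called in all 3 libraries, 1.21 for divided over undivided, 1.19 for divided over polyclonal and 0.989 for undivided over polyclonal. Intervals of single ratios are exact 95% binomial intervals and cover counting error only. All 7 of the CD4+ T cell markers checked (Cd3e, Cd3d, Cd4, Lck, Cd28, Cd5 and Zap70) had a peak at a gene end in every library, with Cd4 at a pileup of 96 for divided, 62 for undivided and 71 for polyclonal cells. Markers of other cell types were mixed. The CD8 T cell marker Cd8b1 had such a peak at 33 in divided, 51 in undivided and 63 in polyclonal T cells, while Cd8a had none. The B cell marker Cd79a had 97, 95 and 94 in the same order, Ebf1 had 12 in divided and 11 in polyclonal cells only, and Ms4a1 and Pax5 had none. Among myeloid markers Spi1 had 69, 49 and 39, Itgam had 14 in undivided and 22 in polyclonal cells only, and Lyz2 and Csf1r had none. Of the markers of innate lymphocytes Eomes had 37, 37 and 31, and Ncr1, Klrb1c and Zbtb16 had none. The part of other cell types in the values of the locus was not tested.

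Promoter sequence in RefSeq (GRCm38.p6, the assembly of mm10) was found for 3 genes inside or next to called regions, and each is shown because the results below turn on its region. They are the stretch between the starts of Dad1 and Abhd4, and the 250 bases before the starts of Gm30392 and Gm30214, which lie beside the V segments Trdv2-2 and Trav8d-2. All 3 run 5′ to 3′ on the minus strand, at chr14:54253930-54254128, chr14:53961653-53961902 and chr14:53039467-53039716.
Dad1: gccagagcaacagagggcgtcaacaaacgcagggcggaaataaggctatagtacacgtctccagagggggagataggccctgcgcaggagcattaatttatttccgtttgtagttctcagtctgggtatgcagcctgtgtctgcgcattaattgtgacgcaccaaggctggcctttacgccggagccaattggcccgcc
Gm30392: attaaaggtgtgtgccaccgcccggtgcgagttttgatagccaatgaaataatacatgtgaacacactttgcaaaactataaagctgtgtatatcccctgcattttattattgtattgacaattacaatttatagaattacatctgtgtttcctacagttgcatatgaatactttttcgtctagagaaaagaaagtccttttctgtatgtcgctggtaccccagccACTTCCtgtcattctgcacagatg
Gm30214: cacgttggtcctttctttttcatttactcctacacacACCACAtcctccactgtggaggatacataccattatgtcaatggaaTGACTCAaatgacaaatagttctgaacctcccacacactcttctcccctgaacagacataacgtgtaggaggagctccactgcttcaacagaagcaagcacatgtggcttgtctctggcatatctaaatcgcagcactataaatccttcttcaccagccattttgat
Capitals mark matches on either strand to 7 motifs: the Runx motif TGTGGT, the Ets motif GGAAGT, the cyclic AMP response motif TGACGT, the TCF/LEF motif CTTTGA, the GATA factor motif AGATAA, the E-box motif CAGCTG and the AP-1 motif TGANTCA. The Dad1 stretch held no match to these letters, and its base content was 54.8% G and C. The Gm30392 window held 1 Ets match, as did 19.7% of all 32851 promoter windows of that length. The Gm30214 window held 1 Runx match, found in 14.1% of all windows, and 1 AP-1 match, found in 6.75%. A match describes the letters and is not a measured binding site.

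Of the 188 regions, 122 (64.9%, Wilson 95% interval 57.8 to 71.4) were called in divided cells, 141 (75.0%, 68.4 to 80.6) in undivided cells and 130 (69.1%, 62.2 to 75.3) in polyclonal cells. Over all regions of the genome the shares were 82.2% in divided cells, 71.1% in undivided cells and 75.4% in polyclonal cells. The locus thus had its fewest calls in the deepest library. In all 3 libraries 82 regions were called, 43.6% of the locus against 56.9% of the genome. Regions exclusive to a library numbered 20 for divided (genome 14.3%), 28 for undivided (genome 6.3%) and 17 for polyclonal cells (genome 7.49%). A further 10 regions were shared by divided and undivided cells only (genome 3.96%), 10 by divided and polyclonal cells only (genome 7.07%) and 21 by undivided and polyclonal cells only (genome 3.99%).

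**Figure D1:**
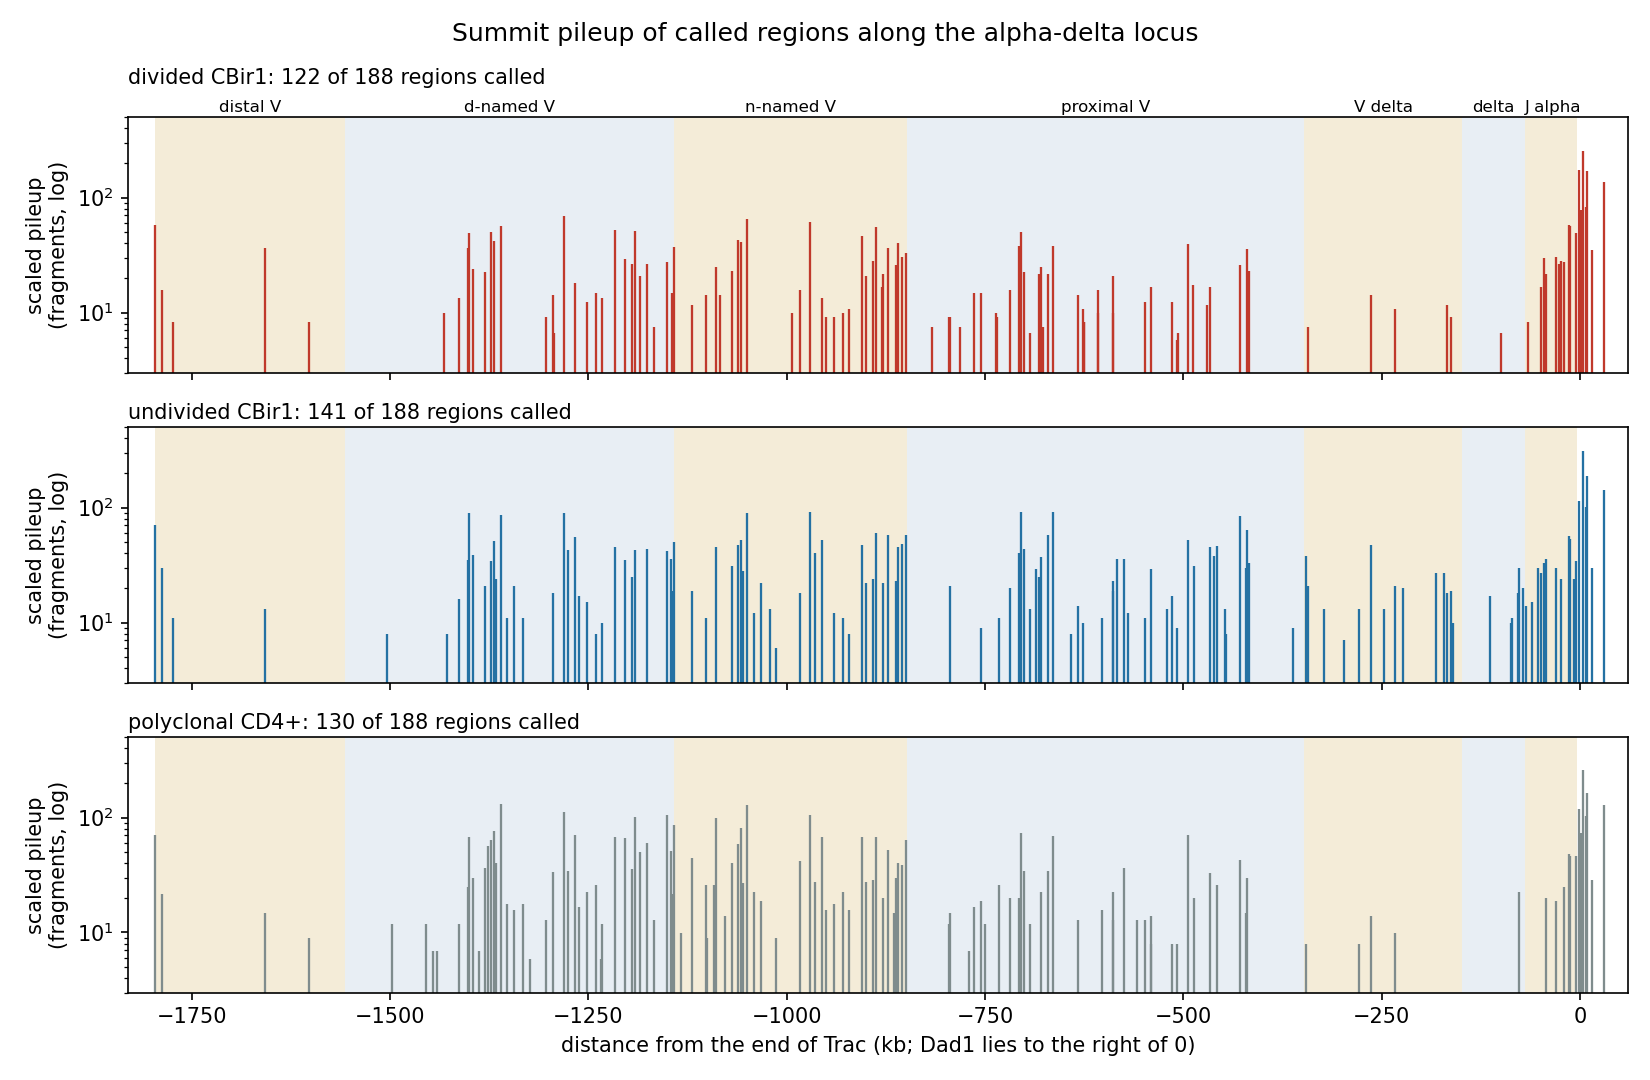
Scaled summit pileup (fragments, log axis) of each called region against the distance in kb from the end of Trac, for divided (top), undivided (middle) and polyclonal cells (bottom); each line is 1 region and the shading marks stretches of the locus. Calls are dense in undivided cells and sparse in divided and polyclonal cells over the V delta and delta stretches, and the highest lines of all 3 libraries stand behind Trac.

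A region was counted as one-sided where its peak in a library reached a −log10 q of 5 and the other library had no peak. Divided against undivided cells gave 17 such regions for divided cells, against 13.4% of regions genome-wide, and 39 for undivided cells, against 5.34%, out of 171 regions called in either. The locus was thus at 9.94% and 22.8%, the opposite order to the genome. Divided against polyclonal cells gave 17 regions for divided cells (genome 10.4%) and 25 for polyclonal cells (genome 5.32%) out of 160. Undivided against polyclonal cells gave 28 regions for undivided cells (genome 5.3%) and 16 for polyclonal cells (genome 7.87%) out of 168. Each library enters 2 of these pairs, so the pairs are not independent.

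In regions called in both libraries of a pair, pileups in divided cells lay lower. The median ratio of divided over undivided was 0.793 over 92 regions, with 68 below 1, 32 lower by at least 1.5 times (genome 10.5%) and 4 higher by at least 1.5 times (genome 11.9%). Divided over polyclonal had a median of 0.743 over 92 regions, with 36 lower by at least 1.5 times (genome 8.11%) and 4 higher (genome 11.6%). Undivided over polyclonal had a median of 0.984 over 103 regions, with 16 higher by at least 1.5 times (genome 7.13%) and 23 lower (genome 7.24%). Both tails of that pair were thus wider than in the genome. The higher regions included Traj26 and Traj37, outside the V array, and the proximal V stretch held regions of both tails.

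The V array, from Trav1 to Trdv4, held 158 of the regions, and 91 of them overlapped a V segment. A called region lay within 500 bp of 71 of the 119 V segments not annotated as pseudogenes in divided cells, 78 in undivided cells and 82 in polyclonal cells. The pseudogenes had a region within that distance in 2, 8 and 3 of 17 cases in divided, undivided and polyclonal cells. From the far end the array was read as distal V (Trav1 to Trav6-2), V segments whose names carry the letters d or n, which mark copies made by duplication of the cluster, proximal V up to Trav21-dv12, and the V delta stretch up to Trdv4. A segment with dv in its name can serve alpha and delta chains.

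**Figure D2:**
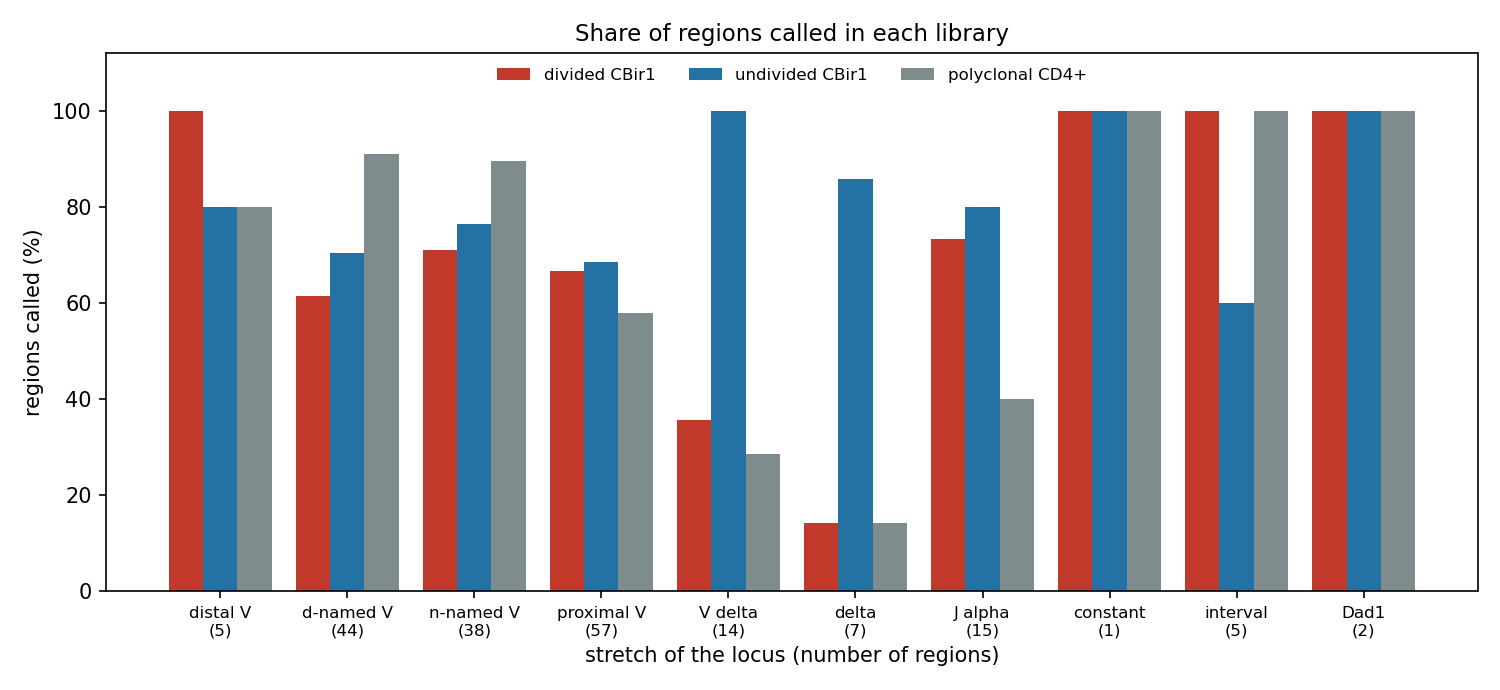
Percentage of regions called in divided, undivided and polyclonal cells (left to right within each group of bars) by stretch of the locus, with the number of regions in parentheses. Polyclonal bars are highest in the d- and n-named V stretches, undivided bars in the V delta and delta stretches.

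The distal stretch held 5 regions over 240 kb. The region over Trav1, the V segment farthest from Trac, had pileups of 70 in divided, 70 in undivided and 71 in polyclonal T cells. These are alike before scaling, and the ratio of divided over undivided was 0.829 (0.587 to 1.17) after it. The region over Trav2, chr14:52566856-52567448, had 44 fragments in divided cells, 13 in undivided cells and 15 in polyclonal cells. It was the V region with the highest ratio for divided cells, 2.81 (1.48 to 5.68) over undivided and 2.46 (1.34 to 4.76) over polyclonal cells, and the only distal region with either ratio above 1.

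The d- and n-named stretches held 82 regions, of which 54 were called in divided cells, 60 in undivided cells and 74 in polyclonal cells. The genome shares were 82.2%, 71.1% and 75.4% in the same order. Polyclonal cells had the most calls there. Of these 82 regions, 13 were exclusive to polyclonal cells (genome 7.49%), out of 17 such regions over the locus. Median ratios were 0.829 for divided over undivided (45 regions), 0.581 for divided over polyclonal (49 regions) and 0.703 for undivided over polyclonal (57 regions, 43 of them below 1). By pileup, both CBir1 fractions thus lay lower than polyclonal cells in most of these regions. With the deposited fold over local background in place of pileup, the median log2 ratios were -0.17 for divided over polyclonal, against -0.78 with pileups, and -0.02 for undivided over polyclonal, against -0.51. Without scaling, the median log2 ratio of divided over undivided was 0. No source used here says how reads that match several copies were placed, so d and n copies are uncertain as separate measurements. Of 27 pairs of copies with a region at both, 21 were called in the same libraries.

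The highest pileup in the V array was over Trav15d-1-dv6d-1, with 68 in divided cells, 86 in undivided cells and 133 in polyclonal cells. Its copy Trav15n-1 had 79, 89 and 129 in the same order of fractions. Polyclonal cells were highest at both. At Trav13d-4, divided cells had 33, undivided cells 42 and polyclonal cells 106, which gave ratios over polyclonal of 0.261 (0.171 to 0.389) for divided and 0.401 (0.273 to 0.578) for undivided cells. At Trav11n the values were 30, 45 and 100, again with polyclonal cells high and divided cells low. The copy Trav11d had 59 in divided, 89 in undivided and 68 in polyclonal T cells, so there the undivided library was the highest.

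A pair of Trav15 copies separated divided cells from both others. Trav15d-2-dv6d-2 had 22 in divided cells, 55 in undivided cells and 71 in polyclonal cells, a divided over undivided ratio of 0.332 (0.193 to 0.553). Trav15n-2 had 16 in divided, 52 in undivided and 69 in polyclonal T cells, a ratio of 0.255 (0.136 to 0.454), the lowest of the locus for that pair. Divided cells had less than both other libraries at each. The neighbours Trav14d-2 and Trav14n-2 were not called in divided cells, with 43 and 40 in undivided and 35 and 28 in polyclonal cells.

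The region at the start of Gm30214, chr14:53039169-53039915, whose sequence is printed above, had 25 in divided cells, no peak in undivided cells and 51 in polyclonal cells. It was the highest polyclonal pileup among the regions called in divided and polyclonal cells only in the V array. A region near Trav12d-1, chr14:52848097-52848253, was called only in polyclonal cells, at 57 fragments, the highest of their 17 exclusive regions.

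The proximal stretch, from behind Trav15n-3 to Trav21-dv12, held 57 regions, called in 38, 39 and 33 cases in divided, undivided and polyclonal cells (genome 82.2%, 71.1% and 75.4%). By pileup, the order of undivided and polyclonal cells turned in this stretch. The median ratio of undivided over polyclonal was 1.33 over 27 regions, 21 of them above 1, and 10 were higher by at least 1.5 times. The difference from the d- and n-named stretches is given as counts, since no test was possible. Divided over undivided had a median of 0.659 over 24 regions, 20 of them below 1, and divided over polyclonal 0.774 over 23. With the deposited fold over local background in place of pileup, the median log2 ratio of undivided over polyclonal was 0.15, against 0.41 with pileups. For divided over undivided it was -0.29, against -0.60, and for divided over polyclonal -0.17, against -0.37. Without scaling, the pileup median of divided over polyclonal was -0.12.

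At Trav15-1-dv6-1 divided cells had 46, undivided cells 92 and polyclonal cells 70, with a divided over undivided ratio of 0.415 (0.284 to 0.597). At Trav13-5 the values were 31, 85 and 43, a divided over undivided ratio of 0.302 (0.194 to 0.461) and an undivided over polyclonal ratio of 2.00 (1.37 to 2.96). The region nearest to Trav17, chr14:53804096-53804646, had 43, 64 and 30. Undivided cells were the highest library at all 3. Trav11 had 61 in divided cells, 91 in undivided cells and 74 in polyclonal cells, close to its copy Trav11d.

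Exclusive regions of the proximal stretch numbered 12 divided, 9 undivided and 4 polyclonal ones out of 57, and divided ones were also the most frequent in the genome (14.3%, against 6.3% undivided and 7.49% polyclonal). The strongest divided ones lay near Trav8-2 with 21 fragments and near Trav12-2 with 19. The strongest undivided ones were 38 fragments near Trav14-3, 36 near Trav14-2 and 29 near Trav12-1. Over the whole locus, 10 of the 20 exclusive divided regions reached a −log10 q of 5, as did 19 of the 28 exclusive undivided regions.

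By family, regions within 500 bp of Trav13 segments were called in all 3 libraries in 15 of 15 cases (genome 56.9%). Their median pileups were 48 in divided, 45 in undivided and 59 in polyclonal T cells. The 9 regions so close to Trav15 segments were called in 7, 9 and 9 cases in divided, undivided and polyclonal cells. The genome shares were 82.2%, 71.1% and 75.4% in the same order. Divided cells were lower than undivided cells in all 7 Trav15 regions called in both. The 10 regions so close to Trav14 segments were called in 5 divided, 10 undivided and 8 polyclonal cases, beside the same genome shares. The 11 regions so close to Trav9 segments were called in 9 divided, 6 undivided and 6 polyclonal cases, and in the genome, too, divided calls were the most frequent (82.2%, against 71.1% and 75.4%). The families share copies across the duplicated stretches, so members of a family are not independent.

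The V delta stretch, whose bounds were set with earlier results of these data known, and the delta genes gave the widest split between fractions in calls. Together they held 21 regions over 199 and 79.5 kb, of which divided cells had 6 (28.6%, 13.8 to 50.0), undivided cells 20 (95.2%, 77.3 to 99.2) and polyclonal cells 5 (23.8%, 10.6 to 45.1). The genome shares were 82.2%, 71.1% and 75.4% in the same order. A region entered when any library had a peak. The 12 regions called in undivided cells alone thus raise the undivided share and lower the others by construction. The intervals take regions as independent draws and leave out the spread between mice. Exclusive regions numbered 1 for divided cells (genome 14.3%), 12 for undivided cells (genome 6.3%) and none for polyclonal cells (genome 7.49%). One-sided regions numbered none for divided (genome 13.4%) against 12 for undivided cells (genome 5.34%). They numbered 12 for undivided (genome 5.3%) against none for polyclonal cells (genome 7.87%). Where 2 libraries had a peak, undivided cells were higher than divided cells in 5 of 5 regions, with a median ratio of divided over undivided of 0.480, and higher than polyclonal cells in 5 of 5, with a median ratio of 2.12. With the deposited fold over local background in place of pileup, the median log2 ratio was -0.27 for divided over undivided, against -1.06 with pileups, and 0.58 for undivided over polyclonal, against 1.09. On that measure the divided over undivided median did not lie below that of the proximal V stretch, -0.29.

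**Figure D3:**
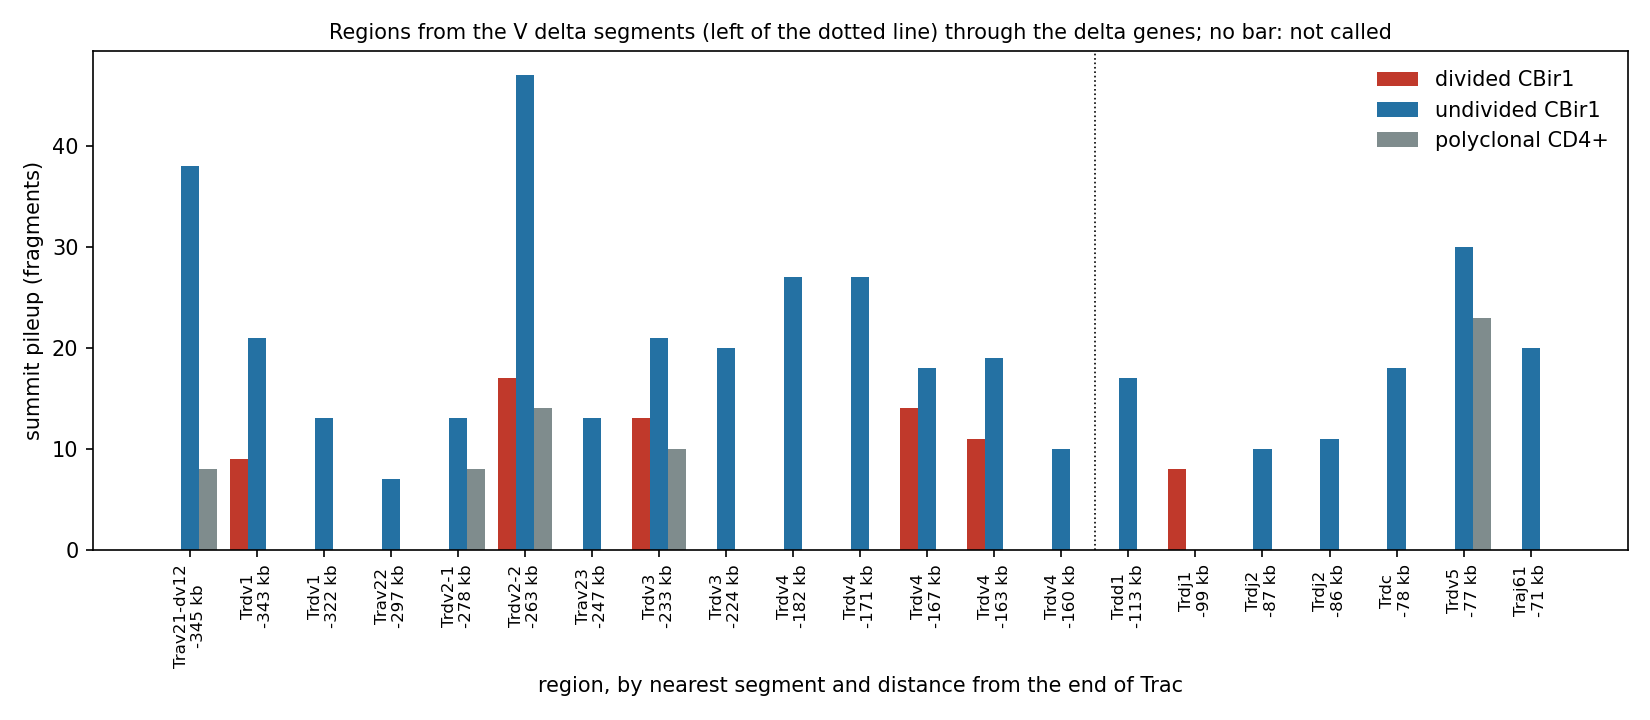
Summit pileup (fragments, unscaled) of the 21 regions of the V delta and delta stretches in divided, undivided and polyclonal cells, ordered towards Trac and named by the nearest segment. Undivided bars are the highest in every region but the one nearest to Trdj1, where only divided cells had a peak, at 8 fragments.

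Behind Trav21-dv12, the region chr14:53878427-53878977 had no peak in divided cells, 38 fragments in undivided cells and 8 in polyclonal cells. Its undivided over polyclonal ratio, 4.81 (2.21 to 11.9), was the highest of the locus for that pair. The region over Trdv2-2, a V delta segment, and up to the start of Gm30392, chr14:53960899-53961826, had 17 in divided cells, 47 in undivided cells and 14 in polyclonal cells. Undivided cells stood apart from the other two, at a divided over undivided ratio of 0.300 (0.161 to 0.532) and an undivided over polyclonal ratio of 3.40 (1.84 to 6.68). Divided and polyclonal cells lay close, with a ratio of 1.02 (0.473 to 2.23). Of the 250 printed bases before Gm30392, 174 lay inside this region.

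Around Trdv1 a region had 9 fragments in divided and 21 in undivided cells. Further before Trdv3, a V delta pseudogene, a region had 13 in divided cells, 21 in undivided cells and 10 in polyclonal cells. The region 135 bp before Trdv3 had 20 and was called only in undivided cells. Undivided cells were thus the highest at each. Between Trdv3 and Trdv4 lay 5 regions, all called in undivided cells with 10 to 27 fragments, 2 of them also in divided cells at 14 and 11, and none in polyclonal cells.

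Within the delta genes, the region before Trdd1, a D delta segment, had 17 fragments and was called only in undivided cells. A pair of regions behind Trdj2, on the side of the constant region where the delta enhancer is known to lie, had 10 and 11 and was also exclusive to undivided cells. The region 406 bp behind Trdc, the delta constant region, had 18 in undivided cells only. Every one of these delta gene peaks was thus missing from the divided and polyclonal lists. Between Trdc and Trdv5, a V segment behind the constant region, a region had no peak in divided cells, 30 in undivided cells and 23 in polyclonal cells, a ratio of 1.32 (0.741 to 2.38). The region before Traj61, the first J alpha segment and a pseudogene, near which an early germline promoter is known to lie, had 20 fragments in undivided cells only.

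The pileups in this stretch were low, and a missing call means that a peak did not pass the authors' threshold, not that the DNA was closed. With a minimum −log10 q of 10, calls numbered 1 for divided, 9 for undivided and 2 for polyclonal cells. The local background, which reflects fragments around a peak, lay between 1.00 and 4.10 times the library's lowest value in undivided cells. The range was 1.00 to 1.27 in divided and 1.00 to 1.31 in polyclonal cells. Each range covers only the regions called in that library, 20 undivided, 6 divided and 5 polyclonal ones, so the places differ. Markers of gamma delta T cells, which use the delta genes, were Sox13 with 11 fragments in divided, 10 in undivided and 21 in polyclonal T cells, Blk with 10 in divided cells and no peak in undivided or polyclonal cells, and Scart1 with no peak in any library. The part of gamma delta T cells in the delta calls was not tested.

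**Figure D4:**
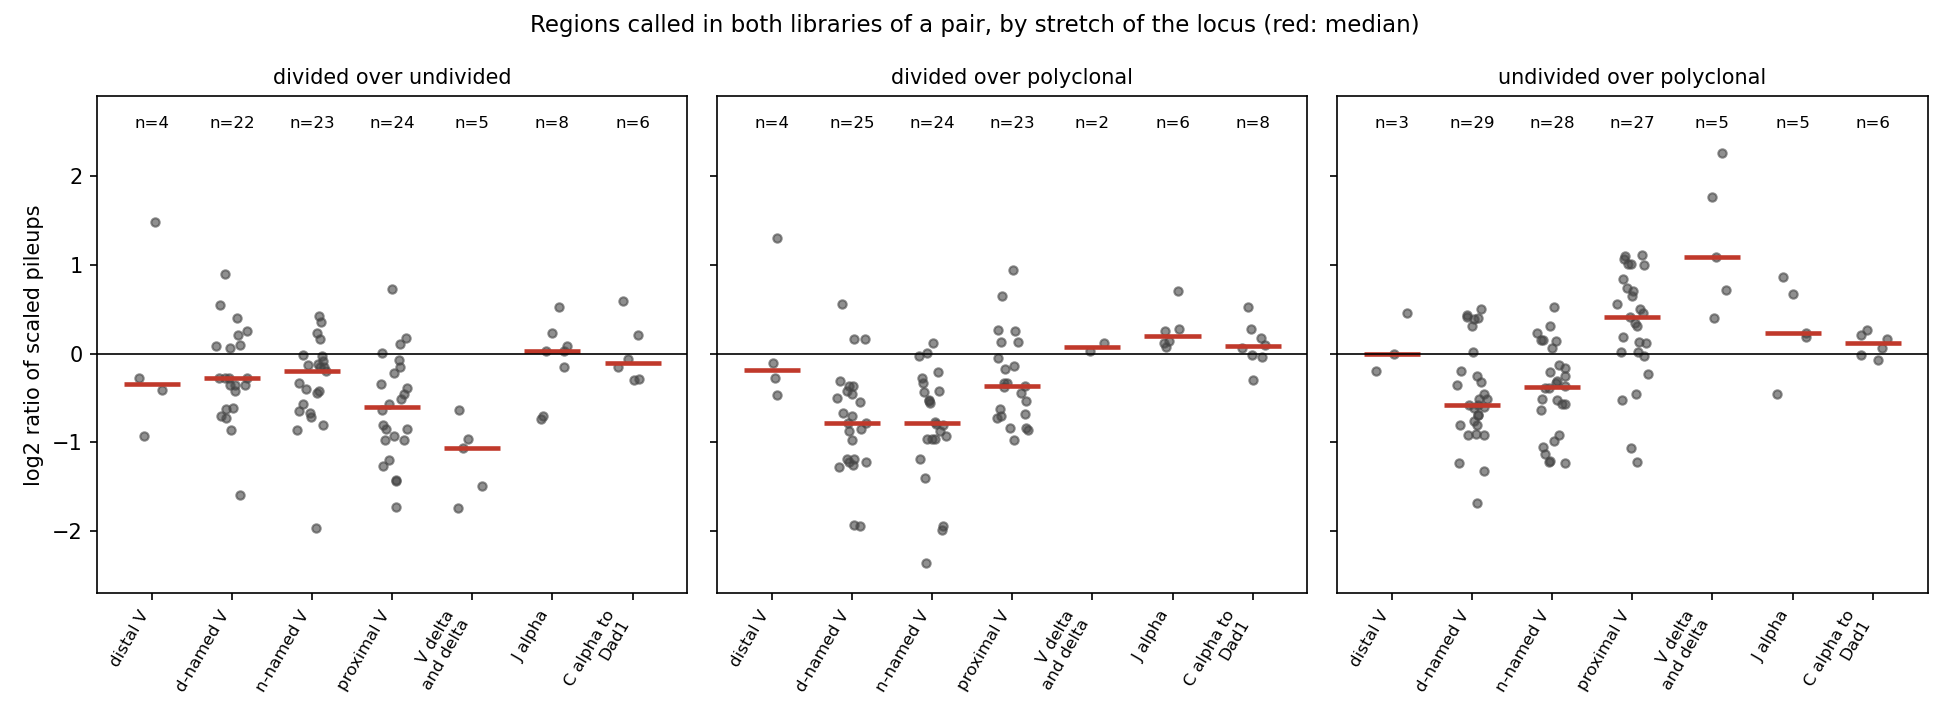
Log2 ratio of scaled pileups in regions called in both libraries of a pair, by stretch, for divided over undivided (left), divided over polyclonal (middle) and undivided over polyclonal (right); red bars are medians and n is the number of regions. Undivided over polyclonal lies mostly below 0 in the d- and n-named V stretches and mostly above 0 in the proximal V and delta stretches.

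The J alpha array, 65.5 kb with 60 Traj segments, held 15 regions, called in 11 cases in divided cells (genome 82.2%), 12 in undivided cells (genome 71.1%) and 6 in polyclonal cells (genome 75.4%). Few regions overlapped a Traj segment: 6 segments were overlapped by a called region in divided, 7 in undivided and 5 in polyclonal T cells. In the outer array, before Traj37, divided cells had 3 calls and undivided cells 5, with exclusive undivided regions near Traj60, Traj53 and Traj47 at 14, 15 and 30 fragments. Polyclonal cells had no call there. From Traj37 to Traj1, divided cells had 8 calls, undivided cells 7 and polyclonal cells 6.

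At Traj37 divided cells had 26, undivided cells 36 and polyclonal cells 20, with an undivided over polyclonal ratio of 1.82 (1.03 to 3.32). At Traj26 the values were 37, 30 and 19, the only J region with both CBir1 libraries at least 1.5 times above the polyclonal one. At Traj8 they were 70, 57 and 49, with ratios whose intervals include 1 for all 3 pairs. The neighbouring region at Traj7 had 68, 53 and 47. The region at Traj1, the segment closest to Trac, had 59, 34 and 47, so undivided cells were lowest there.

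The local background of the same regions turned in the same direction. Against the library's lowest value, it was 4.86 times in divided and 9.69 times in undivided cells at Traj42. At Traj37 it was 5.62, 7.89 and 5.46 times in divided, undivided and polyclonal cells. At Traj1 it was 20.7, 16.7 and 18.2 times. The ratio of divided over undivided background, by the lowest values, was thus below 1 in the outer J array, at 0.501 at Traj42, and above 1 beside Trac, at 1.24 at Traj1. These backgrounds come only from called regions, and no source used here gives the window behind them.

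**Figure D5:**
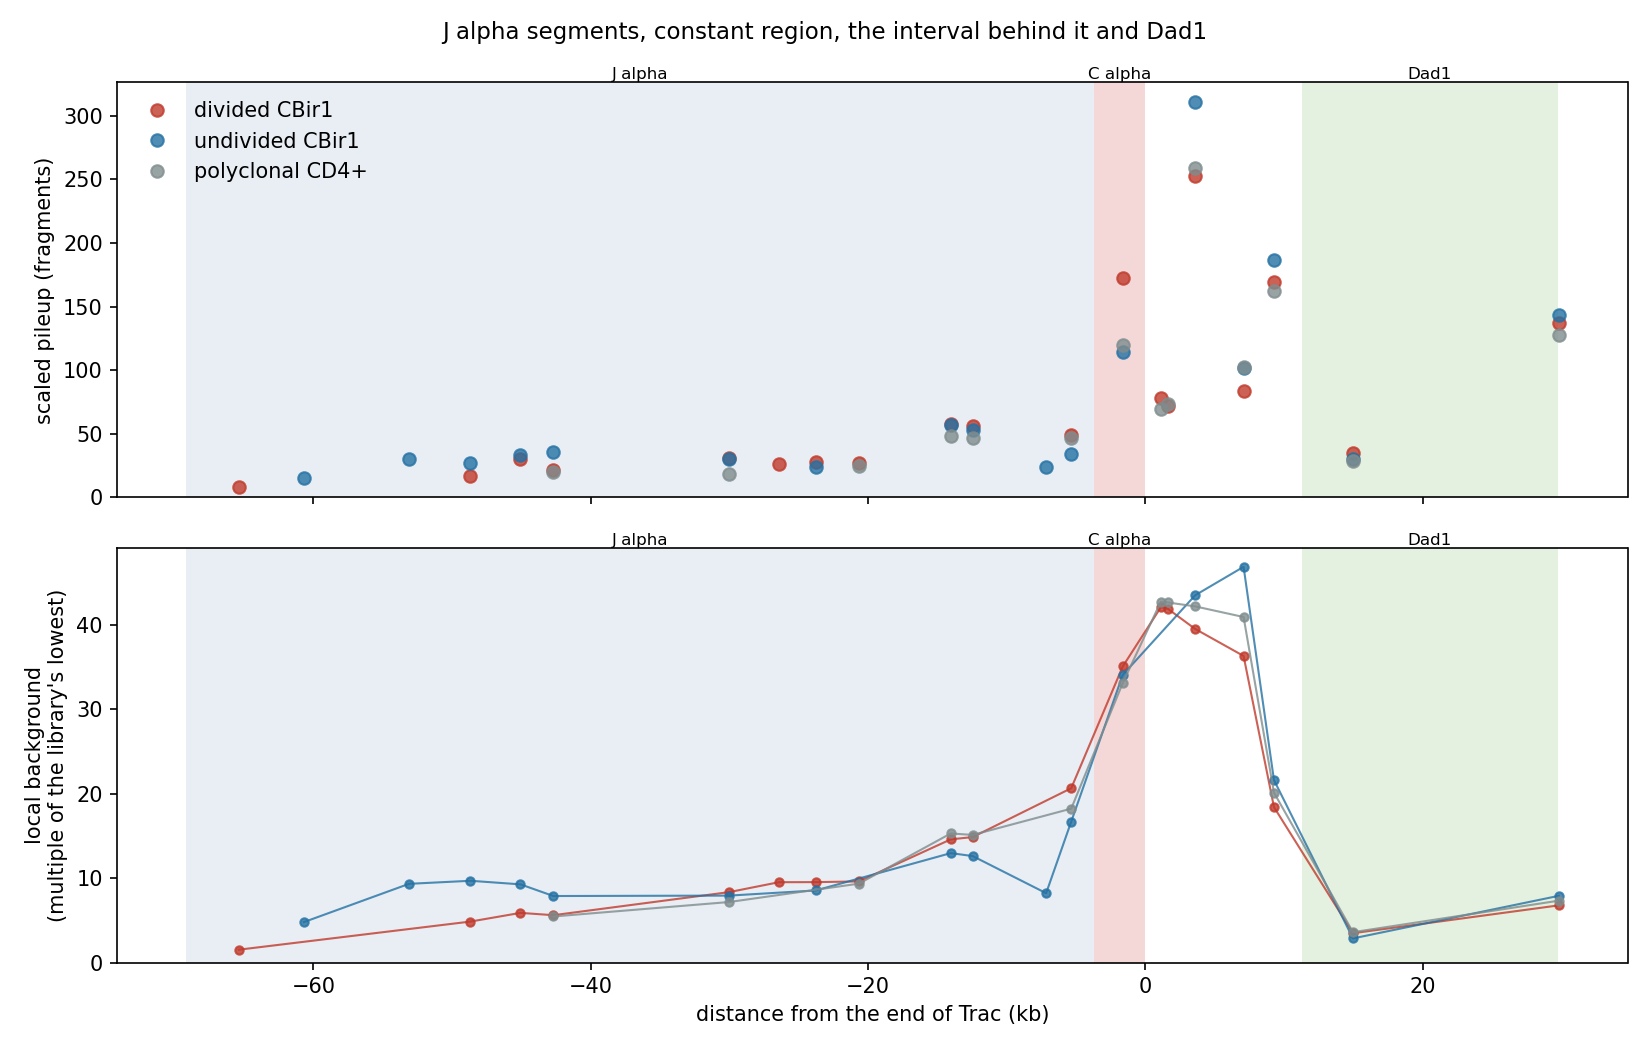
Scaled summit pileup (fragments, top) and local background as a multiple of the library's lowest value (bottom) of called regions against the distance in kb from the end of Trac, for divided, undivided and polyclonal cells; lines join the regions of 1 library. Background is highest behind Trac in all 3 libraries and lower again at Dad1. In undivided cells it is uneven along the J alpha array (9.69 at Traj42, 7.89 at Traj37, 8.22 at Traj3 and 16.7 at Traj1). The divided library has the highest scaled pileup at the constant region.

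The region over Trac, the alpha constant region, chr14:54222225-54222901, had 208 fragments in divided cells, 114 in undivided cells and 121 in polyclonal cells. Divided cells stood apart, at 1.51 (1.20 to 1.92) times undivided and 1.44 (1.15 to 1.82) times polyclonal cells, and undivided over polyclonal was 0.953 (0.731 to 1.24). With pileups scaled by the lowest background in place of shared regions, the divided excess was 1.22 (0.966 to 1.55) over undivided and 1.23 (0.979 to 1.55) over polyclonal cells, and both intervals then included 1. The background around it was nearly alike, 35.1, 34.1 and 33.1 times the lowest value in divided, undivided and polyclonal cells.

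The interval between Trac and Dad1 held 5 regions in 11.3 kb, among them the highest of the locus. The region chr14:54227100-54228465, which begins 2902 bp behind the end of Trac, on the side where the alpha enhancer lies, had 305 fragments in divided cells, 311 in undivided cells and 262 in polyclonal cells. Its −log10 q was 132 in divided, 172 in undivided and 124 in polyclonal T cells. It was high in every library, and the divided over undivided ratio was 0.813 (0.692 to 0.956), the divided over polyclonal ratio 0.977 (0.825 to 1.16) and the undivided over polyclonal ratio 1.20 (1.02 to 1.42). Scaled by the lowest background, they were 0.655 (0.558 to 0.770), 0.834 (0.705 to 0.987) and 1.27 (1.08 to 1.51), so that the divided over polyclonal interval no longer included 1. The region nearest to Dad1, chr14:54232943-54233997, had 204, 187 and 164, with ratios whose intervals include 1 in each pair. Between them a region had 101, 102 and 104, alike in all fractions before scaling. The remaining 2 regions, directly behind Trac, had 94 and 87 in divided cells, no peak in undivided cells and 70 and 74 in polyclonal cells.

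The local background of the constant region and the interval lay between 18.4 and 42.1 times the lowest value in divided, 21.6 and 46.9 times in undivided and 20.1 and 42.8 times in polyclonal cells. Only 0.206% of all divided peaks, 0.236% of undivided and 0.248% of polyclonal peaks had a higher background than the highest of the locus. At such a background a peak needs many fragments to be called. Both regions directly behind Trac were weak in the libraries that had them, with −log10 q between 3.78 and 5.48.

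Dad1 had a region inside the gene, chr14:54238854-54239483, with 42 in divided cells, 30 in undivided cells and 29 in polyclonal cells. The region over the starts of Dad1 and Abhd4, chr14:54253567-54254465, whose central 199 bases are printed above, had 165, 143 and 129. All intervals of the 6 ratios included 1, with divided over undivided at 1.16 (0.710 to 1.92) inside the gene and 0.957 (0.760 to 1.21) at the start. The background was back at 2.87 to 7.91 times the lowest value in all 3 libraries.

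The receptor beta locus on chromosome 6, whose chain pairs with the alpha chain, had 44 regions. They were called in 31 divided, 26 undivided and 30 polyclonal cases, the same order as in the genome (82.2%, 71.1% and 75.4%). The beta locus differed from the alpha-delta locus at its largest values, which were picked out after they were seen. The region over Trbv12-2, chr6:41118060-41119023, had 1524 fragments in divided, 1606 in undivided and 88 in polyclonal T cells, 14.5 and 18.5 times polyclonal cells, on a background of 92.6, 145 and 11.6 times the lowest value. Of 17 beta regions called in all 3 libraries, 7 were at least 1.5 times higher in both CBir1 libraries than in polyclonal cells, against 3 of 82 at the alpha-delta locus and 2.14% in the genome. The 3 alpha-delta regions lay at Trav6-6, Trav6-7-dv9 and Traj26, with ratios of 1.57 to 2.15. No source used here names the alpha segments of the CBir1 transgene, so its DNA and that of the endogenous locus cannot be told apart.

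Among 1066 protein-coding genes with at least 10 regions, those whose regions fell into the 7 call patterns most as at the locus were Nhsl1, Ttc28, Sgms1, Galnt10 and Elk3, by the Euclidean distance between shares over 3 libraries (0.0796 to 0.100, with a median over genes of 0.272). They had 11 to 44 regions each, against 188. Of 28 genes that partner, recombine or regulate receptor genes, 26 had regions, 318 in all. One-sided regions numbered 34 for divided against 18 for undivided cells (genome 13.4% and 5.34% of regions called in either). That is the order of the genome and not of the locus. Factors that bind the alpha enhancer or shape the locus, such as Ets1, Tcf7 and Runx1, gave 26 against 12 in 266 regions, beside the same genome shares. Of the 28 genes, 14 had more one-sided regions for divided cells and 3 had more for undivided cells. These 3 were Cd3e, a signalling partner of the receptor, with 1 against 3, and Rag1 and Dntt, each with 0 against 1. Of the recombinase genes, Rag1 had 1 region, with no peak in divided cells, 9 fragments in undivided and 7 in polyclonal cells, and Rag2 had none.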

How the data were processed

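Per the submitters' processing notes, reads were handled with cutadapt 1.12 and Trimmomatic 0.33, and the notes also list Bowtie2 2.3.2, Picard and SAMtools, the peak caller MACS2 2.1.0 and the mouse build mm10. The sources used here do not say how duplicate pools or multiply matching reads were treated, nor whether reads were shifted for the transposase. Each deposited peak has a score, which in at least 99% of peaks is 10 times its −log10 q-value cut to a whole number and was not used, and 3 values that were: its fold over local background, −log10 p-value and −log10 q-value.

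Pileup and background were recovered from the deposited fold, as (pileup + 1)/(background + 1), and the Poisson p-value. The pileup was whole within 0.001 for over 99.99% of peaks in each list, and the method was tested on simulated peaks. Pileups were divided by the median ratio over regions called in all 3 libraries. With 1 library per fraction, counts and ratios are described without tests. Segment spans were read from RefSeq (GRCm38.p6), whose table has neither strand nor exons. The locus, the lists and the stretches of the V array were chosen with earlier results of these data known. Regions were named by pileup within a stretch, by one-sidedness and by landmark genes. As 76 of 188 regions were one-sided in some pair, the strongest are given singly and the others as counts.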

Additional observations from a re-analysis of the deposited data

How the results depend on the processing

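No paired analysis was possible because each fraction has 1 library. Calls, one-sided counts and shares by stretch stayed within their limits when overlaps had to cover 0.5 of the shorter peak, when peaks up to 100 bp apart were joined, when peaks were limited to the shallowest depth by lowest background or by shared regions, and for the locus interval alone. With a minimum −log10 q of 5, calls in the V delta and delta stretches numbered 3 in divided and 3 in polyclonal cells, and the delta genes held 0% of divided calls. With a minimum of 10, the locus had 76 divided, 92 undivided and 84 polyclonal calls, the V delta and delta stretches 1, 9 and 2, the delta genes 0% of divided calls, and the J alpha array 3.95% of divided and 3.26% of undivided calls. At both minima undivided cells had the most calls, over the locus and over the V delta and delta stretches.

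One-sided counts depended on the minimum set for the peak. At the authors' threshold, divided against undivided cells gave 30 and 49 regions in that order (genome 12284 and 5913). Divided against polyclonal cells gave 30 and 38 (genome 10501 and 6594), and undivided against polyclonal cells 38 and 27 (genome 5899 and 8363). At a minimum −log10 q of 10, divided against undivided cells gave 5 and 23 (genome 2792 and 922). The other pairs, in the same order, gave 6 and 17 (genome 1728 and 794), and 11 and 4 (genome 734 and 1009). Regions nearest to Dad1 alone, at a minimum of 5, gave 9 and 27, 12 and 9, and 26 and 5, as fewer regions enter. The genome gave 7145 and 2837, 5586 and 2866, and 2611 and 3874 at that minimum. In each of these settings undivided counts exceeded divided ones, the opposite order to the genome. The median log2 ratio stayed negative in every setting tried for divided over undivided and divided over polyclonal cells. It was -0.65 and -0.66 with pileups scaled by lowest background, -0.065 and -0.18 without scaling, and -0.18 and -0.14 with the deposited fold in place of pileup.

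Pileups under about 20 fragments carry wide counting intervals, and 1 library per fraction leaves the spread between mice and pools unknown.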
